A study of Drosophila melanogaster with 3 samples.

Results

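The genes described here are 9 members of the system that lays out the anterior-posterior axis of the Drosophila melanogaster embryo: bcd, cad, hb, Kr, kni, gt, tll, hkb and tor. They were taken by name from the Ensembl annotation, in which all 9 were found among 18164 genes on the major chromosome arms. The measurements come from chromatin immunoprecipitation with sequencing (ChIP-seq) of a CG8944-eGFP fusion, in which an antibody against green fluorescent protein recovers the DNA that the tagged protein sits on. The sample descriptions name this antibody, whereas the antibody field of the labels reads CG8944. The embryos, of both sexes and 0 to 24 h old, came from 1 transgenic line that stably expresses CG8944 with the tag at its C terminus. They form 1 group of 3 biological replicates, so no condition can be compared. Whole embryos were used, and the cells in which a site is bound cannot be told apart. The labels do not give the promoter that drives the fusion or whether the untagged protein was still present.

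The data are lists of peaks on the dm6 build, with a summit and a signal value for each entry. The relaxed lists, which by design mix peaks with background, held 30000, 30000 and 27393 entries for replicates 1, 2 and 3, and 23886 for the replicates pooled. The reproducible list held 3511 peaks, those the authors kept by irreproducible discovery rate (IDR). The signal is the authors' own value for each peak, its scale is not stated, and it is read here only by rank within a list. The depth of each sample is unknown, since a peak list carries no counts of reads.

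In this system, maternal products set up broad gradients in the egg, gap genes read them in wide stripes, and the gap proteins in turn position the finer stripes of later segmentation genes. The product of bcd is a homeodomain morphogen made from maternal RNA held at the anterior pole, and cad encodes a homeodomain protein that forms a gradient from the posterior. The gap genes hb and Kr encode zinc-finger proteins, kni encodes an orphan protein of the nuclear receptor family, and gt encodes a leucine-zipper protein. At the 2 ends of the embryo, the maternal receptor tyrosine kinase encoded by tor switches on tll, an orphan nuclear receptor gene, and hkb, a zinc-finger gene.

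Of the 9 genes, bcd alone had a reproducible peak at its own promoter. Taking as promoter the 500 bp on either side of each annotated transcription start site (TSS), 1 of 9 members (11.1%) had a reproducible summit there, against 14.1% of all annotated genes. In the gene body or within 5 kb of it, a reproducible summit was found for 2 of 9 members, bcd and cad, against 39.5% of all genes. The other 7 had none in that window. The median window of the members was 13625 bp wide and that of all genes 11656 bp, so the members' windows were not narrower. The share at promoters was thus close to the share of all genes, and with 9 genes neither count sets the members apart.

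The relaxed lists added little at these promoters. In the pooled relaxed list bcd was again the 1 member with a summit within 500 bp of a TSS, against 39.9% of all genes. In replicate 1 the members with such a summit were bcd, Kr, kni and hkb (4 of 9, against 45.1% of all genes). In replicate 2 they were bcd and kni (2 of 9, against 40.5%), and in replicate 3 bcd and tor (2 of 9, against 41.8%). No promoter other than that of bcd had an entry in all 3 replicates. The matching share of all genes is not given here, so this count has no background to compare with. Within the gene or 5 kb of it, 8 of 9 members had a pooled entry, against 87.9% of all genes, and gt was the exception.

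**Figure D1:**
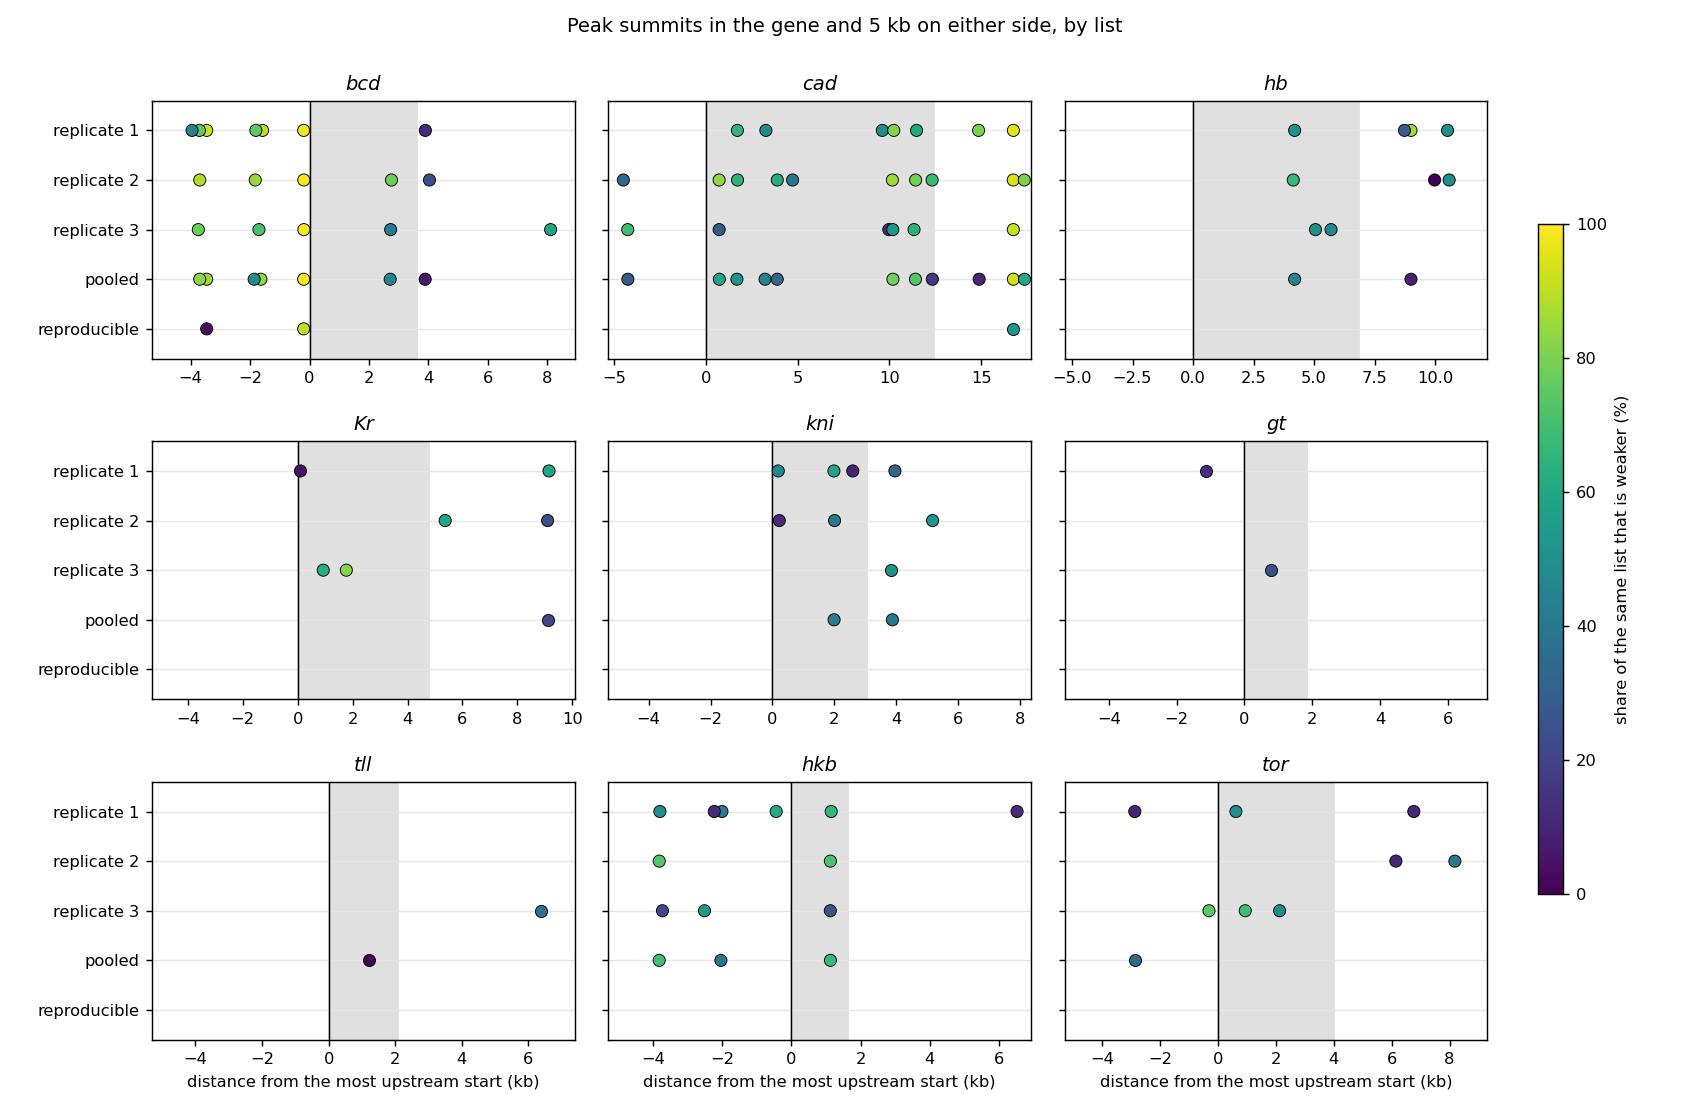
Peak summits around each member gene. The x axis is the distance from the most upstream start of the gene in kb, in the direction of transcription, with the gene shaded and 5 kb shown on either side; each row is 1 list, and the colour gives the share of that list's entries that are weaker (%). The bcd promoter holds a strong entry in every row, and 7 of 9 genes have an empty bottom row.

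The bcd gene (FBgn0000166) lies on the minus strand of arm 3R, from 6755842 to 6759466, with 1 annotated TSS. Its reproducible peak covered 6759577 to 6759788, outside any annotated gene, with the summit 196 bp upstream of the TSS. The signal was 412.5, which placed the peak at rank 352 of 3511. Of the reproducible peaks, 89.97% were weaker.

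All 3 replicates placed this peak at nearly the same base. The signal of the overlapping entry was 118 in replicate 1, 143.6 in replicate 2 and 149.5 in replicate 3, each on the scale of its own list. These entries ranked 523, 355 and 262, a mean rank of 380 ± 132 (SD, n = 3). Each lay within the strongest 1.74% of its list. The summits of the replicates were 1, 3 and 5 bp from the reproducible summit.

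The shape and position of the bcd peak differed somewhat from the common form. It was 212 bp wide in the reproducible list, whereas the most common width was 400 bp and 14.2% of the peaks were narrower than 250 bp. The overlapping entries were 396, 384 and 181 bp wide in replicates 1, 2 and 3, so only replicate 3 listed it as narrow. Of the 1907 reproducible peaks at promoters, 366 (19.2%) lay at least as far upstream of the nearest TSS as the bcd summit did, and the median position of all of them was -83 bp. The base composition within 50 bp of the summit was 53.5% G and C. Over pooled entries that overlapped a reproducible peak, the median was 36.6%.

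The sequence of the whole bcd peak is shown because it is the single promoter site among the members. It is given 5′ to 3′ on the strand of bcd (dm6, chr3R:6759577-6759788, minus strand), so that the TSS lies beyond its right-hand end. Capitals mark matches on either strand to 15 short consensus strings, of which 14 came from a list of factor sites and promoter elements and 1 was added after this sequence had been read.

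bcd promoter peak: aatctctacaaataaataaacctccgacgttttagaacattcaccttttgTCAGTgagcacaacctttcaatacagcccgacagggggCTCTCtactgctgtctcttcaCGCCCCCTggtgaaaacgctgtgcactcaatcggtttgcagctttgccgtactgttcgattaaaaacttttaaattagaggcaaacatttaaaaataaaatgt

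Of the 14 listed strings, GAGAG and TCAGT occurred in the bcd peak. The string bound by GAGA factor (GAGAG, here read as its complement CTCTC) lay 34 bp from the summit. It occurred within 50 bp of the summit in 10.1% of all reproducible peaks and in 12.7% of weak pooled entries, meaning those that overlap no reproducible peak. A string of the initiator element (TCAGT) lay 72 bp from the summit and so outside that window. The strings used for the binding sites of Bicoid (TAATCC), Caudal (TTTATG), Hunchback (CATAAAA), Kruppel (GGGTTAA), Tailless (AAGTCA) and Zelda (CAGGTA) were not in the peak, and neither were the DRE (TATCGATA), the BEAF-32 core (CGATA) and the TATA box (TATAAA). Each of these is absent near most summits. Within 50 bp, their shares over all reproducible peaks ran from 1.28% (Kruppel) to 18.7% (BEAF-32). The added string, AGGGGGCG, resembles the core of sites bound by the insulator protein CTCF and lay 10 bp from the summit, on the strand opposite to bcd. Over all reproducible peaks it was found in 12 of 3511 windows of 101 bases (0.342%), and in 0.416% of weak pooled entries. As the string was picked from this sequence, its match here was certain and these shares do not make it notable.

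By signal, the reproducible peaks next to that of bcd belonged to other kinds of site. The peak just above it in rank, 351, lay in an intron of aop, which encodes a transcriptional repressor of the ETS family, 2127 bp from the nearest TSS. The peak just below, at rank 353, lay in a coding exon of klar, 3058 bp from the nearest TSS, that of lncRNA:CR46002. Their signals were 412.5 and 411.9, next to 412.5 at bcd.

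A second reproducible peak in the bcd window lay at neighbouring genes. Its summit was at -3462 bp relative to the bcd TSS. It lay 309 bp upstream of a TSS of lncRNA:CR45593 and 335 bp downstream of a TSS of Ama. Ama encodes a secreted protein with immunoglobulin domains. The summit base is annotated as 5′ UTR of Ama and as an intron of lncRNA:CR45593, so it lies inside both genes. The peak covered 3R, 6762728 to 6763127. With a signal of 109.9 it ranked 3386 of 3511, near the weak end of the list.

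Only replicate 1 placed this second peak at the reproducible summit. The overlapping entry with the nearest summit had a signal of 53.3 in replicate 1 (rank 2186), where 2 overlapped it, 37.96 in replicate 2 (rank 3547) and 24.4 in replicate 3 (rank 6231). Its summit was at the same base in replicate 1, but 234 bp away in replicate 2 and 281 bp away in replicate 3, on the side away from bcd. For the summits of replicates 2 and 3 the nearest TSS was another of Ama, 242 and 195 bp away. A pooled entry with its summit at 6763162, the base listed by replicate 2, had a signal of 94.1 (rank 4161). The second peak therefore had 1 of 3 replicates among their 3511 strongest entries, where the promoter peak of bcd had 3 of 3.

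The bcd window also held weak entries, 4 in the pooled list that overlapped no reproducible peak. The strongest lay at -1638 bp relative to the TSS, with a signal of 99.4 and rank 3880, below the weakest reproducible peak (107). Entries within 100 bp of it were present in replicate 1 (signal 44.2) and replicate 3 (signal 21.9). The other 3 had signals of 39.3 to 51.2, and 1 of them lay in a coding exon of bcd.

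The cad gene (FBgn0000251; 2L, 20770731 to 20783135, plus strand) had no entry within 500 bp of either of its 2 TSSs in any list. The reproducible peak in its window sat at the promoter of the next gene. That peak covered 20787281 to 20787680, and its summit lay 4346 bp beyond the 3′ end of cad and 175 bp upstream of the TSS of Pomp, which encodes a proteasome maturation factor. Its signal was 180 (rank 1682 of 3511), which is stronger than 52.1% of the reproducible peaks.

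All replicates held the Pomp promoter peak among their strongest entries. Its signal was 76.7 in replicate 1 (rank 1175), 60.2 in replicate 2 (rank 1796) and 47.5 in replicate 3 (rank 2202), a mean rank of 1724 ± 517 (SD, n = 3). The summits of the replicates lay 1, 5 and 2 bp from the reproducible summit. When a peak counted only for the gene with the nearest TSS, cad lost it and bcd was the single member left, against 14.4% of all genes.

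Inside cad the relaxed lists were well filled, but with weak entries. The cad window, at 22405 bp the widest of the 9, held 11 pooled entries, of which 10 overlapped no reproducible peak. The entry nearest to a start lay 578 bp downstream of a TSS, in a coding exon, just outside the promoter window. Its signal was 56.9 in the pooled list (rank 9769). It was present in replicate 2 (signal 31.6) and replicate 3 (signal 14.8) and had no entry within 100 bp in replicate 1.

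Among these weak cad entries, a pair was found in all 3 replicates. The first lay in an intron, 10029 bp downstream of the nearest TSS, with a pooled signal of 80.5 (rank 5212) and signals of 30.4, 33.9 and 17.8 in replicates 1, 2 and 3. The second lay in a coding exon, 11255 bp downstream, with a pooled signal of 70.5 (rank 6421) and signals of 20.9, 28.1 and 19.7. Both were well below the weakest reproducible peak (107).

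The Pomp summit and these weak entries are shown side by side, as the sites in the cad window that every replicate listed. Each run holds the 50 bases on either side of the summit, on the plus strand of dm6, which is the strand of both genes, with capitals as above: chr2L:20787431-20787531 at Pomp, chr2L:20780873-20780973 in the intron and chr2L:20782099-20782199 in the coding exon.
Pomp promoter summit: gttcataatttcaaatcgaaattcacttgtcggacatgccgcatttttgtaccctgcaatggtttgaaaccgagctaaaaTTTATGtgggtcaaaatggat
cad intronic weak entry: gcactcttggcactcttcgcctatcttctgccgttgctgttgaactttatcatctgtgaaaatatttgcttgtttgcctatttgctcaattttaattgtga
cad exonic weak entry: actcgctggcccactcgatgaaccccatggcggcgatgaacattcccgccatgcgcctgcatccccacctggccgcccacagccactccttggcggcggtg

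Few of the strings searched were found at these 3 sites, and each string is absent near most summits of either kind. The Pomp window held the Caudal string (TTTATG) 30 bp from the summit, as did 11.96% of all reproducible peaks and 8.18% of weak pooled entries. Neither cad entry held any of the 15 strings. The windows differed in base composition, at 37.6% G and C at Pomp, 38.6% in the intron and 68.3% in the coding exon.

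The hb gene (FBgn0001180; 3R, 8690980 to 8697822, minus strand) had no reproducible summit in its window and no entry in any list within 500 bp of its 2 TSSs. The stronger of its 2 pooled entries lay in a coding exon, 970 bp downstream of the nearer TSS, with a signal of 49.6 (rank 13255 of 23886). Replicate 1 (signal 19.2) and replicate 2 (signal 23.6) each had an entry within 100 bp of it, and replicate 3 had none. The strongest hb entry of replicate 1 lay elsewhere, 5774 bp downstream of the nearest TSS and beyond the gene (signal 35.8, rank 4135). It was matched in the pooled list (signal 39.7) but not in replicates 2 and 3. The strongest entry near hb was thus a different site in replicates 1 and 2.

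At kni (FBgn0001320; 3L, 20692330 to 20695378, minus strand) weak entries lay at the start, within the gene and beyond it. Replicates 1 and 2 had an entry in its 5′ UTR, 188 and 221 bp downstream of a TSS, with signals of 18.4 (rank 16147) and 15.7 (rank 26555). Neither replicate 3 nor the pooled list had one there. A pooled entry in a coding exon, 1169 bp downstream of the nearest TSS, had a signal of 48.9 (rank 13641), with entries in replicate 1 (signal 20.6) and replicate 2 (signal 18.6). The strongest kni entry of any replicate lay at 42.1% of its list, that in the coding exon in replicate 1.

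The terminal gap gene hkb (FBgn0261434; 3R, 4345015 to 4346646, minus strand) had 3 pooled entries in its window, and a pair of them was found in every replicate. The stronger lay 3829 bp upstream of the TSS, between genes, with a pooled signal of 66.6 (rank 7110). Its signals were 18.8, 25.6 and 14.2 in replicates 1, 2 and 3. The other lay 1128 bp downstream, in the 3′ UTR of hkb, with a pooled signal of 63.9 (rank 7693) and signals of 22.7, 24.98 and 14.7. Near the TSS, replicate 1 alone had an entry, 442 bp upstream (signal 21.4), just inside the promoter window.

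The upstream hkb entry is shown because, of the gap genes' weak sites, it had the highest pooled signal. It is given on the strand of hkb (dm6, chr3R:4350425-4350525, minus strand). It held the BEAF-32 core (CGATA) 21 bp from its summit, as did 18.7% of reproducible peaks and 11.7% of weak pooled entries. The letters of this string also form part of the DRE, of which no full match was present.
hkb upstream weak entry: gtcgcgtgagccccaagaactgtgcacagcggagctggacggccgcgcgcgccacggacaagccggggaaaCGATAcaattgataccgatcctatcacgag

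The genes gt and tll were almost empty in every list. In the gt window (FBgn0001150; X, 2427113 to 2428967, minus strand) the pooled list had no entry, as for 12.1% of all genes. Replicate 1 had 1 entry 1124 bp upstream of the TSS (signal 14.6, at 86.9% of its list). Replicate 3 had 1 in the coding exon (signal 14.5, at 75.3% of its list), while replicate 2 had none. In the tll window (FBgn0003720; 3R, 30852315 to 30854400, plus strand) the pooled list had 1 entry in a coding exon, 1208 bp downstream of the TSS, at rank 23868 of 23886 (signal 38.1). No replicate had an entry within 100 bp of it. Replicate 3 had 1 entry 6379 bp downstream (signal 15.8), and replicates 1 and 2 had none. Of all genes, 10.1% had an empty window in replicate 1 and 6.88% in replicate 2.

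**Figure D2:**
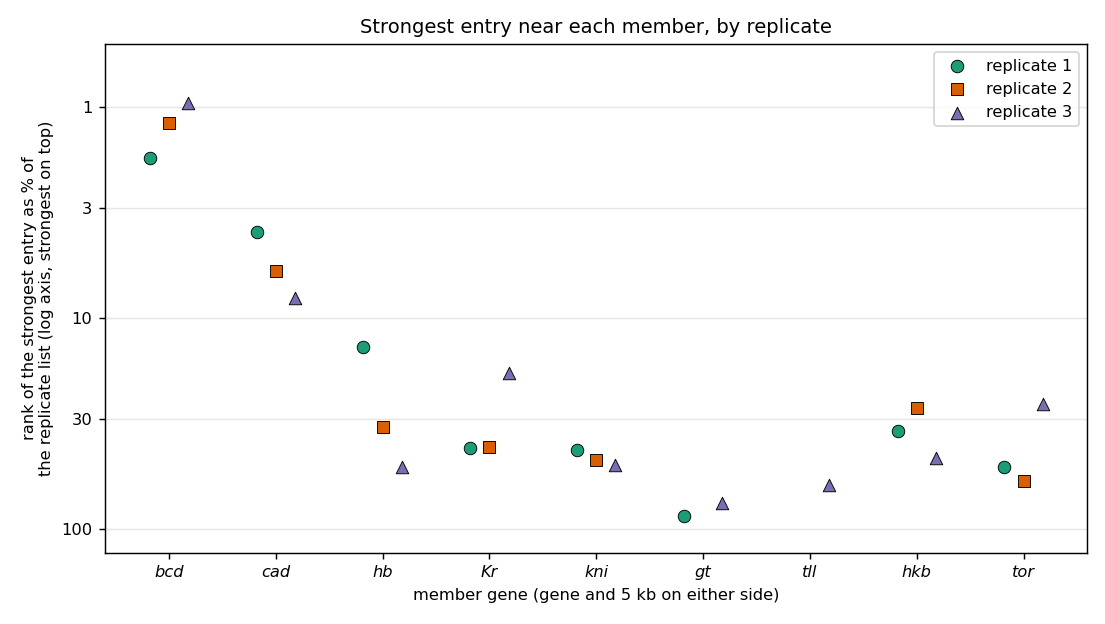
Strongest entry in the window of each member, by replicate. The y axis is the rank of that entry as a percentage of its replicate's list, on a log axis with the strongest at the top; a missing point means no entry in that replicate. All 3 points of bcd lie within the strongest 1.74%, those of cad (the Pomp promoter) within 8.04%, and those of the other genes at 13.8% or weaker.

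The Kr gene (FBgn0001325; 2R, 25226611 to 25231394, plus strand), which lies within an intron of CG9380, showed no site shared by all replicates. Its 1 pooled entry lay 9114 bp downstream of the TSS and beyond the gene (signal 42.6, rank 18860), with entries in replicate 1 (signal 20.8) and replicate 2 (signal 16.7). Replicate 1 also had an entry 101 bp downstream of the TSS (signal 13.9, rank 28516). Replicate 3 instead had an entry 1771 bp downstream, in the coding exon (signal 27.4, rank 4978). The strongest entry of replicate 2 lay 5372 bp downstream of the TSS, beyond the gene (signal 21.7, rank 12303), so the strongest entry was at a different place in each replicate.

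The receptor gene tor (FBgn0003733; 2R, 7705183 to 7709184, minus strand) was likewise uneven between replicates. Replicate 3 had an entry 313 bp upstream of the TSS (signal 23.1, rank 6993), with no counterpart in the promoter window in replicates 1 and 2 or in the pooled list. The single pooled entry in its window (signal 46.1, rank 15625) lay at -2881 bp relative to the tor TSS and 513 bp from the TSS of Dgat2. Replicate 1 alone had an entry within 100 bp of it (signal 14.3).

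Summed over the 9 windows, the replicates held 34, 27 and 24 entries (28.3 ± 5.13, SD, n = 3). Per gene the replicate lists held 7.67 ± 2.08 entries for cad, 5.67 ± 1.15 for bcd and 3.67 ± 2.08 for hkb. The means were 3.0 ± 1.0 for hb, 2.67 ± 1.53 for kni, 2.67 ± 0.577 for tor and 2.0 ± 0 for Kr, and 0.667 ± 0.577 for gt and 0.333 ± 0.577 for tll. Neighbours in this order differed by no more than the larger of their SDs, apart from tor and Kr, and Kr and gt. Scaled to window width, the pooled list held 5.14 entries per 10 kb at bcd and 4.91 at cad. Of the members, 6 of 9 lay below the median of all genes (2.33), which was 2.44 over protein-coding genes alone. The median of the members was 1.19.

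In their support by replicates, the weak entries near the members were close to those elsewhere in the pooled list. Of 24 such entries, 4 (16.7%) had a summit within 100 bp in all 3 replicates, against 16.4% of all 19963 pooled entries that overlapped no reproducible peak. In 2 replicates it was 10 entries (41.7% against 40.8%), in 1 replicate 9 entries (37.5% against 37.1%), and in none 1 entry. Their summits lay in a coding exon in 8 cases (33.3%, against 28.4%), of which 6 were in the member itself, at bcd, cad, hb, kni and tll. Of the others, 9 were intergenic, 5 intronic and 2 in a 3′ UTR. The median G and C content within 50 bp of the summit was 55.4%, with a range of 27.7% to 69.3%, against 47.5% for all weak pooled entries.

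Of the members, tll, gt and Kr lay farther from a reproducible peak than the upper quartile of all genes. The nearest reproducible summit lay 196 bp from the TSS of bcd, but 10007 bp from a TSS of tor, 11436 bp for cad, 12459 bp for hkb, 16245 bp for kni, 17866 bp for hb, 34804 bp for tll, 39819 bp for gt and 43461 bp for Kr. Over all genes, non-coding ones included, the median was 9810 bp, with quartiles of 2694 and 26746 bp, and 8 of 9 members lay beyond that median. Over the 13945 protein-coding genes alone the median was 8965 bp, with quartiles of 2199 and 24501 bp. For tor and cad the excess was small: 49.4% and 46.2% of all genes lay farther away. The shares were 44.2% for hkb, 37.6% for kni and 35.2% for hb. For tll, gt and Kr the shares were 18.97%, 16.5% and 14.7%.

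None of those nearest peaks other than that of bcd lay within 5 kb of a member's TSS. They were found at the promoters of Coq9 for tor, CG9776 for hkb and Unc50 for hb, 76, 116 and 121 bp from their TSSs. For tll the peak lay in an intron of cindr, 103 bp from a TSS. For cad and gt the peak was in an intron, of the formin gene dia (1005 bp from its TSS) and of boi, a gene of the Hedgehog receptor complex (1257 bp). For kni and Kr it was intergenic, 2477 and 5658 bp from the nearest TSS. Their signals ranged from 121 (rank 3015) near tll to 242 (rank 1026) near gt, all below the bcd peak.

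**Figure D3:**
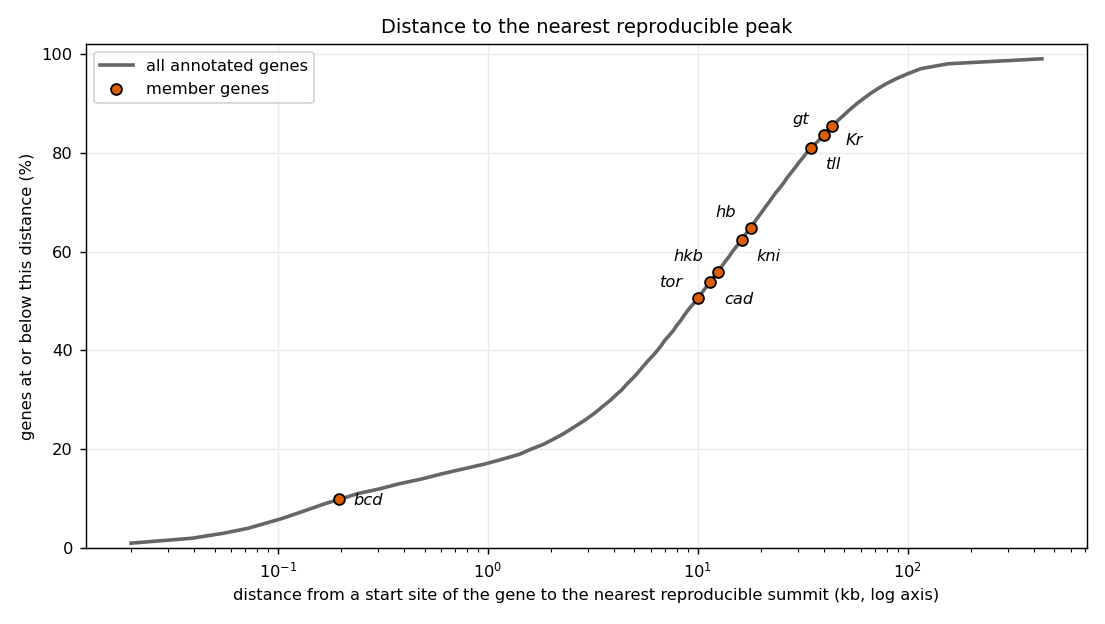
Distance from a start site to the nearest reproducible summit. The x axis is the distance in kb on a log axis and the y axis the share of all 18164 genes at or below it (%); the line is all annotated genes and the points are the 9 members. The point of bcd stands apart at 196 bp, and the other 8 lie between 10007 and 43461 bp.

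Other genes of the same system were counted for comparison, from a list of 41 genes grouped by role. At their promoters, 11 of 41 had a reproducible summit (26.8%, against 14.1% of all genes) and 21 of 41 a pooled relaxed summit (51.2%, against 39.9%). The list was drawn up with earlier results of these data known, and 1 peak can count for more than 1 gene. Genes with more annotated TSSs also had a wider stretch searched.

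Among the 14 genes of terminal signalling, which act upstream or downstream of the receptor tor, 5 had a reproducible promoter peak (35.7%, against 14.1% of all genes). The strongest was at gro, which encodes the Groucho co-repressor, with a signal of 654 (rank 125 of 3511) and ranks of 93, 152 and 160 in replicates 1, 2 and 3. Ras85D, the Ras GTPase gene, followed with 277 (rank 804) at a peak that also lies within 500 bp of a TSS of Rlb1. The repressor gene cic had 186 (rank 1614), the phosphatase gene csw 184 (rank 1632) and fs(1)N 125 (rank 2866). The fs(1)N peak, which also lies near a TSS of DAAM, ranked 6393 in replicate 1 and 2218 and 2722 in the others. No reproducible summit was at the promoters of tsl, trk, clos, drk, Sos, ksr, Raf, Dsor1 and rl.

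The maternal RNA localisation and posterior genes gave 3 further peaks. They lay at 1 of 3 anterior genes (33.3%) and 2 of 9 posterior genes (22.2%), against 14.1% of all genes. Of the 3 anterior genes, stau, which encodes a double-stranded RNA-binding protein, had a peak with a signal of 148 (rank 2236). Of the 9 posterior genes, nanos, which encodes a translational repressor, had 1 with a signal of 191 (rank 1537). Its summit lay at -390 bp relative to the nanos TSS but 36 bp from the TSS of CG11779. The peak at tud, a germ plasm gene, had a signal of 125 (rank 2843) and also lay near a pair of tRNA genes.

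Of 7 head gap and related genes, cnc, a leucine-zipper gene with 10 annotated TSSs, had a reproducible promoter peak (signal 194, rank 1493), a share of 14.3% against 14.1% of all genes, and oc, ems, btd, slp1, slp2 and croc had none. None of the 4 gap relatives knrl, nub, pdm2 and D had a reproducible or a pooled summit within 500 bp of a TSS. The shares of all genes were 14.1% and 39.9%. Among 4 early activators, the GAGA factor gene Trl (signal 427, rank 321) and Stat92E (signal 109, rank 3434) had a peak, and zld and opa had none. The Stat92E peak was overlapped by 2 entries in replicate 1, of which 1 had rank 1207. In replicate 2 it was overlapped by 1 entry (rank 4828), and in replicate 3 by none. Replicate 3 did have an entry within 500 bp of a Stat92E TSS (signal 21.0, rank 8648), which did not overlap that peak.

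**Figure D4:**
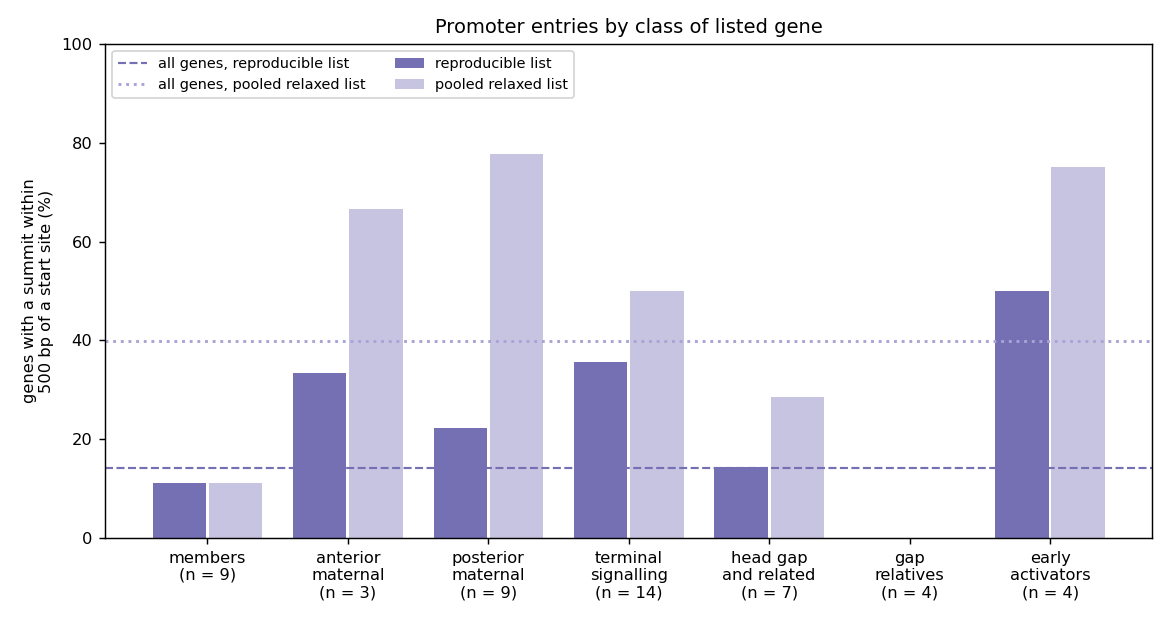
Share of genes with a summit within 500 bp of a start site (%), by class, for the reproducible list (dark bars) and the pooled relaxed list (light bars), with the number of genes under each class. The dashed and dotted lines give the same shares over all annotated genes, 14.1% and 39.9%; the 9 members stand at 11.1% in both lists and the 4 gap relatives at 0.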

How the data were processed

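The 3 samples were placed in 1 group by their labels, which also number the replicates. Per the listing that the authors deposited beside the peaks, each relaxed list came from the replicate alignments and a further file common to all, not described there. The reproducible list came from the relaxed lists by IDR. The labels name a possible control experiment, not used here. The sources used here do not name the aligner, the caller or the IDR cutoff. The deposited signal value of each peak (narrowPeak format) was used only to rank within a list. Lists on dm3 were not used, since the annotation is on dm6.

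Genes and TSSs came from Ensembl release 115 without transposable elements, and sequences from the RefSeq Release 6 genome. The 9 members had the same arm, start and end in both. Summits were the authors' start plus offset, written 1-based. Replicate entries were matched to a reproducible peak by 1 bp of overlap, and weak entries by summits within 100 bp. Motif strings were sought on both strands. Window counting was tested on simulated data with 200 genes.

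No test was run: there is 1 group, and the members were not tested as a set. The members, lists, strings and named genes (all members, listed genes with a reproducible promoter peak, genes at peaks in the members' windows and at neighbouring ranks) were chosen with earlier results of these data known. The names nanos and Raf were brought up to date from synonyms. Scripts used Python 3.11, pandas 2.3.3 and numpy 2.4.6.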

Additional observations from a re-analysis of the deposited data

How the results depend on the processing

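The count of members with a reproducible promoter peak was 1 of 9 (11.1%), bcd, under all 8 alternatives tried for it. These included windows of 200 bp (against 9.97% of all genes) and 1000 bp (against 17.1%). With each replicate left out in turn the share of all genes was 11.2% to 11.4%. The constant count therefore does not set the members apart from all genes. The count for the gene and 5 kb on either side (2) was 1 with 2 kb (against 27.2% of all genes) and 1 when only summits nearest to a TSS of the member counted, since both remove the Pomp peak from cad. It was 3 with 10 kb (against 53.96%), where tor was added, and 2 with each replicate left out (against 32.97% to 33.3%). The authors made the reproducible list from all 3 replicates, so counts with 1 left out do not stand for a new list. The bcd and Pomp peaks were among the 3511 strongest entries in all 3 replicates. Leaving 1 out was thus unlikely to remove them, and the unchanged counts add little support. Members with a pooled relaxed promoter summit numbered 3 with a TSS window of 1000 bp (bcd, cad and hb, against 52.6% of all genes). The mean number of replicate entries over the 9 windows (28.3) was 25.5 to 30.5 with each replicate left out, 17.7 with 2 kb and 44.0 with 10 kb. Of 9 pairs of a reproducible peak and a replicate, 7 were among the strongest entries under every overlap rule. No paired analysis was possible because there is 1 group. Unknown depth limits what weak entries can show. Each list also ends at its own weakest entry, with a signal of 13.5, 14.8 and 12.6 in replicates 1, 2 and 3. A missing weak entry can therefore reflect where a list ends.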

Other observations

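Some promoter entries lay below the reproducible list, and the genes given here were chosen after their values were seen. At vas, which encodes a helicase of the germ plasm, the promoter entry had a pooled signal of 101.9 (rank 3746), below the weakest reproducible peak (107), and ranked 3578, 5035 and 3963 in replicates 1, 2 and 3. At Raf, capu and drk the strongest pooled promoter entries had signals of 84.6 (rank 4833), 82.4 (rank 5011) and 82.2 (rank 5034). At exu, whose product takes part in placing bcd RNA, the signal was 70.4 (rank 6433), with 43.03, 29.0 and 22.4 in replicates 1, 2 and 3, whose summits lay 117, 148 and 310 bp from the pooled one.

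The pooled list can hold an entry that no replicate lists, as at tll, and can lack one that 2 replicates share, as at the start of kni. Over all weak pooled entries, 1151 of 19963 (5.77%) had no replicate summit within 100 bp.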
